A study of Mus musculus with 6 samples.

Results

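Annexins are proteins that bind membrane phospholipids when calcium rises, and the small EF-hand calcium sensors of the S100 family dock onto some of them. This account follows 10 genes of that system in mouse kidney after clamping of the renal vessels: Anxa1, Anxa2, Anxa3, Anxa4, Anxa5 and Anxa6, and the S100 genes S100a4, S100a6, S100a10 and S100a11. They were taken by name from the array's annotation, and each was read from its probe set of highest mean intensity among those that carry a single gene symbol. Of the 10 genes, 9 had such a probe set, out of 18193 genes in all. S100a11 had none, since its probe set also carries other symbols, and it is given no value. All 9 lay past the filter on dim probe sets, which kept 12734 genes.

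The arrays held total RNA of kidneys from FVB/N mice, all male, aged 6 to 8 weeks and weighing 22 to 26 g. The mice had the pedicle of 1 kidney clamped for 0, 45 or 60 min under pentobarbital, and kidneys were taken on day 1 or day 3 after the clamp was released (ischemia-reperfusion injury, in which blood flow stops and then returns). The body temperature given for all groups was 40 °C. There was 1 array for each of the 6 combinations of clamp time and day. The labels give the 0 min kidneys the same protocol with a clamp time of 0 min, and name no genetic change and no drug besides the anaesthetic for any group. The title concerns blockade of tumour necrosis factor after this injury, and kidneys with such a treatment are not analysed here.

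In cells, annexins help to reseal torn plasma membrane, to move vesicles and to anchor the actin cytoskeleton at the membrane. Annexin A2 forms a complex with a dimer of S100A10 at the cell surface, which binds plasminogen and its activators, and annexin A1 binds S100A11 and is known for limiting leukocyte entry through formyl peptide receptors. S100A6 and S100A4 bind annexin A2 among other partners. S100A4 is abundant in macrophages and fibroblasts, and S100A6 in dividing and in injured epithelial cells.

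The deposited intensities had been scaled so that the mean of each array, with 2% of values trimmed at each end, was the same (500.003). The array medians ranged from 81.1 to 94.96. RNA quality was read from the control probe sets for beta-actin, as log2 of the 3' over the 5' signal. It lay between 1.03 and 1.12 on 4 arrays, at 0.77 for 0 min on day 3 and at 0.49 for 60 min on day 3. A lower ratio means more 5' signal relative to 3'. The same ratio for Gapdh differed by day. It was -0.23, -0.22 and -0.20 at 0, 45 and 60 min on day 1, and -0.37, -0.33 and -0.37 on day 3. Kidney identity was checked by segment markers, and those with a probe set all passed the filter: 6 of 6 for proximal tubule, 5 of 5 for loop and distal nephron, 5 of 5 for collecting duct and 4 of 5 for podocytes. Their medians for clamped minus 0 min were -0.37, -0.89, -0.37 and 0.16, and limma called 0 of them. In whole tissue, more cells of a type and more RNA per cell cannot be told apart.

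After 60 min of clamping, each of the 9 genes was at its highest on both days. The exceptions under other settings were S100a10 on day 3 with arrays centred on their medians, and Anxa6 on day 1 with all probe sets of a gene averaged (60 minus 45 min of -0.24 in place of 0.29). The arrays of 60 min lay above the other 4 arrays for 9 of 9 genes (18% of all genes tested showed this). The order was 0, then 45, then 60 min for 9 of 9 genes on day 1 (23.1% of genes tested) and on day 3 (22.7%), and 9.57% of genes tested were in this order on both days. With each array centred on its median, 6 of the 9 genes kept the order on both days, against 6.34% of all genes. The 3 that left it were Anxa4, Anxa6 and S100a10. With all probe sets of a gene averaged, 6 of the 9 also kept it, against 9.09% of all genes, and those that left it were Anxa1, Anxa4 and Anxa6. The differences ranged from small for Anxa4 and Anxa6 to large for Anxa3, S100a6 and S100a4. At 60 min, 5 genes (Anxa2, Anxa3, Anxa5, S100a4 and S100a6) were at least 2-fold above the 0 min kidney of the same day on both days, where 3.04% of genes tested were.

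**Figure D1:**
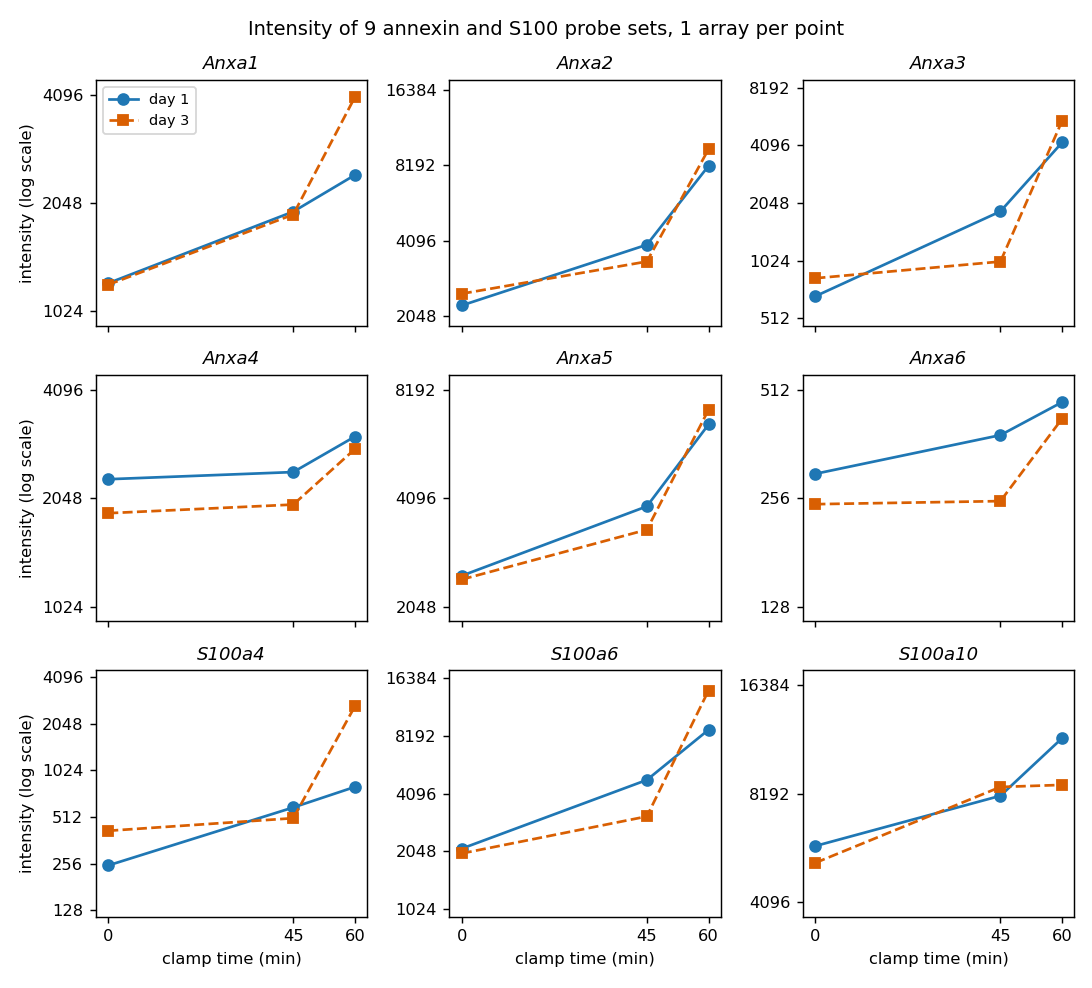
Intensity (vertical axis, log scale, own range for each gene) against clamp time in min, with 1 array per point, circles for day 1 and squares for day 3. Both 60 min points lie above the other 4 points in each panel, and the 45 min point of day 3 lies near the 0 min point for Anxa4 and Anxa6.

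The tests rest on an additive fit of clamp time and day over the 6 arrays (limma, 2 residual degrees of freedom), and values are log2 differences of intensity plus 16, with the SE of the fit. Adding 16 steadies dim probe sets and understates their change. Each combination of clamp time with a day has a single array, and the labels do not say whether an array held 1 animal. For clamped minus 0 min kidneys (the mean of 45 and 60 min minus 0 min), limma called 0 genes at an adjusted p under 0.05 (0% of 12734), and so 0 of the 9. At an unadjusted p under 0.05 there were 1858 genes, 8 of the 9 among them, and 9.56% of genes tested were higher at that level. For 60 minus 45 min it also called 0 genes (0%), with 1661 at an unadjusted p under 0.05, again 8 of the 9 among them, and 7.76% of genes higher. The genes were chosen with earlier results of these data known, and the comparisons share arrays. Without the 45 min day 3 array, limma called 200 genes (1.57% of those tested) in clamped minus 0 min kidneys, among them Anxa2 (adjusted p = 0.0384), Anxa3 (adjusted p = 0.0316) and S100a6 (adjusted p = 0.0484). Without any other single array it called 0, with an adjusted p for Anxa2 of 0.142 to 0.598. With a robust variance trend it called 75 (0.589%), among them Anxa2 (adjusted p = 0.0206) and Anxa5 (adjusted p = 0.0282).

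Median differences of the 9 genes show where the group stood relative to the rest of the array. Their median for clamped minus 0 min was 1.01, against 0.0092 for all genes tested, and for 60 minus 45 min it was 0.93, against 0.05. On single arrays, their median over the 0 min kidney of day 1 was 0.65 for the 45 min kidney and 1.39 for the 60 min kidney. The corresponding medians of day 3 were 0.43 and 1.72. At least 2-fold higher than 0 min were 3 genes at 45 min on day 1 (3.57% of genes tested), 5 at 60 min on day 1 (4.39%), 0 at 45 min on day 3 (1.5%) and 6 at 60 min on day 3 (7.58%). In these 4 comparisons each of the 9 genes, by the probe set used, was higher than at 0 min, as 16.7% of genes tested were. With median centring 7 of the 9 were, and Anxa4 and Anxa6 were not. With all probe sets averaged 7 of the 9 were, and on day 3 the 45 min kidney was below 0 min for Anxa1 (-0.07) and Anxa4 (-0.15). Some other probe sets of Anxa4 and Anxa6 also lay below 0 min, as given below. At 60 min, at least 2-fold higher than at 45 min were 2 genes on day 1 (1.02%) and 6 on day 3 (5.96%).

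**Figure D2:**
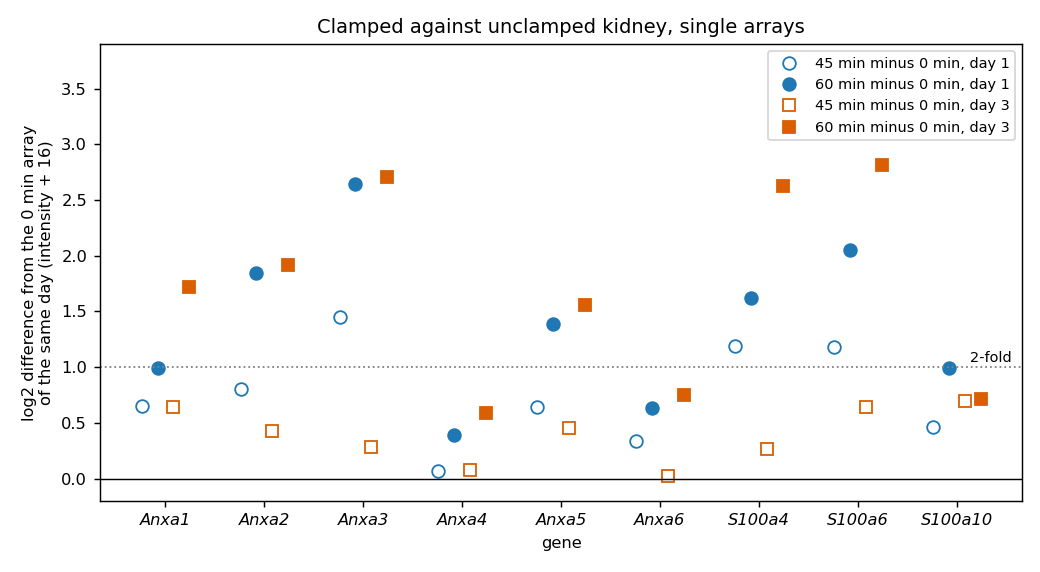
Log2 difference between each clamped kidney and its same-day 0 min kidney (vertical axis) for the 9 genes, 1 pair of arrays per point, open symbols for 45 min and filled for 60 min, with a dotted line at 2-fold. All points lie above 0 (at 45 min, Anxa4 and Anxa6 do not with median centring, nor Anxa1 and Anxa4 with all probe sets averaged), no open square of day 3 reaches the line, and filled symbols of both days pass it for Anxa2, Anxa3, Anxa5, S100a4 and S100a6.

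The sequence before the start site is shown for 4 of the 5 genes that were at least 2-fold higher at 60 min on both days, because these genes were higher together. Each sequence holds the 250 bases before the start, 5′ to 3′ on the gene's strand, from RefSeq on GRCm38.p6. Motifs were searched in these bases and the 50 after the start, 300 in all. Capitals mark matches on either strand to the AP-1 motif TGANTCA, the TEAD motif GGAATG, the TATA box TATAAA or the CArG box. The sequences are chr9:69453433-69453682 (+) for Anxa2, chr3:36475888-36476137 (-) for Anxa5, chr3:90603520-90603769 (+) for S100a4 and chr3:90612644-90612893 (+) for S100a6.
Anxa2: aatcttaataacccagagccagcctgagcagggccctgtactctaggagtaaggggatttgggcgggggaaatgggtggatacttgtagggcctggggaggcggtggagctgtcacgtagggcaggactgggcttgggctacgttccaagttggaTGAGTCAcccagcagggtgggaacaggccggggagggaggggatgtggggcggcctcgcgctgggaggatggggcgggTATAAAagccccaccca
Anxa5: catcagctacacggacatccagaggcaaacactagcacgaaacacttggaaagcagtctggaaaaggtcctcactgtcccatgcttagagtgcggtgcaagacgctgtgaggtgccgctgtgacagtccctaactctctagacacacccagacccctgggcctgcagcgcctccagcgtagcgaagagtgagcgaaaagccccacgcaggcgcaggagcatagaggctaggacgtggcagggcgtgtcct
S100a4: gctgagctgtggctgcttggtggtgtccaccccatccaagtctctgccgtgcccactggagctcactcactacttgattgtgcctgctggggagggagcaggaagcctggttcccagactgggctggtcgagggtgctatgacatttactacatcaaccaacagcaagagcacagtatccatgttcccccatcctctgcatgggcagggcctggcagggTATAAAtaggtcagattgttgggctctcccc
S100a6: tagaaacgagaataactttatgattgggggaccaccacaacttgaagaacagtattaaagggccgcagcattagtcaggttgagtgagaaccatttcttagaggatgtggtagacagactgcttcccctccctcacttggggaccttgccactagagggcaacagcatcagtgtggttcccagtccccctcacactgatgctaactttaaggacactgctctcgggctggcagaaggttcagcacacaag

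The 4 windows shared none of these motifs throughout. Anxa2 held an AP-1 match TGAGTCA that starts at -95, counted from the start site, and a TATA box at -17. S100a4 held a TATA box at -31, Anxa5 a CArG box at 26, after the start and so not printed, and S100a6 none of the motifs marked. Of the 10 genes, 7 had a window, 8 windows in all because Anxa4 has a pair. Among these, AP-1 was found in 2 windows (Anxa2 and S100a11), TEAD in 1 (Anxa1), the TATA box in 3, the CArG box in 1, the GC box GGGCGG in 3 and the STAT motif TTCNNNGAA in 0. Among all 32851 windows the shares were 7.81% for AP-1, 14.7% for TEAD, 13.6% for the TATA box, 1.63% for the CArG box, 35.7% for the GC box and 8.30% for STAT. A match describes the letters only. The S100 genes share chromosome 3: in the RefSeq table for GRCm38.p6, S100a4 and S100a6 are separated by S100a5 alone among protein-coding genes, and S100a10 lies next to S100a11. S100a5 lay below the filter.

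Anxa2 encodes the annexin that carries S100A10 and binds plasminogen at the cell surface. Its intensity was 2252 at 0 min, 3939 at 45 min and 8150.1 at 60 min on day 1. On day 3 the values were 2509, 3375 and 9498. Both 60 min kidneys stood well apart from the other 4, which spanned 2252 to 3939. Relative to 0 min of the same day, the 60 min level was 3.62 times as high on day 1 and 3.79 times on day 3, and the 45 min level 1.75 and 1.34 times. The fitted difference was 1.25 ± 0.15 for clamped minus 0 min (limma adjusted p = 0.151) and 1.27 ± 0.18 for 60 minus 45 min (limma adjusted p = 0.306). Anxa2 and Anxa3 were the only 2 of the 9 genes at least 2-fold higher after 60 than after 45 min on both days, which 0.33% of genes tested were. With all probe sets of a gene averaged, Anxa3 alone was. A dimmer probe set of Anxa2 (1437692_x_at; the suffix marks probes that can also match other transcripts) ran from 33.7 at 0 min to 205 and 215 on day 1 and from 136 to 179 and 187 on day 3. It was higher in each clamped kidney too, but differed between 60 and 45 min by 0.06 on each day.

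Anxa3, whose protein is known for its abundance in neutrophils and for promoting growth of vessels, showed the widest separation by clamp time. Its intensity was 667, 1849.6 and 4237 at 0, 45 and 60 min on day 1, and 828, 1011 and 5495 on day 3. The 45 min kidney of day 3 lay close to both 0 min kidneys, while that of day 1 lay well above them. At 60 min the level was 6.36 times that of 0 min on day 1 and 6.64 times on day 3. The difference of 60 minus 45 min was 1.81 ± 0.34 (limma adjusted p = 0.306), which ranked 11 from the top among 12734 genes. It was 1.21 when the 45 min array of day 3 was left out and 2.41 when that of day 1 was. Clamped minus 0 min differed by 1.77 ± 0.29 (limma adjusted p = 0.173), rank 64.

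Anxa5 encodes the annexin used as a reagent to detect phosphatidylserine on dying cells. Its intensity was 2495, 3889 and 6568 on day 1 and 2436, 3350.3 and 7214 on day 3. The days were nearly alike at each clamp time, and the groups of clamp time did not overlap. Among genes tested, 10.9% had all 4 clamped arrays above both 0 min arrays, and 18% had both 60 min arrays above the other 4. The fitted differences were 1.01 ± 0.14 for clamped minus 0 min (limma adjusted p = 0.160) and 0.93 ± 0.16 for 60 minus 45 min (limma adjusted p = 0.306).

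Anxa1 encodes the glucocorticoid-regulated annexin that acts on formyl peptide receptors. Its intensity was 1225, 1937 and 2449 on day 1 and 1213, 1901 and 4034 on day 3. The 0 min kidneys and the 45 min kidneys matched closely between days, and the 60 min kidney of day 3 stood above that of day 1. Clamped minus 0 min differed by 1.00 ± 0.20 (limma adjusted p = 0.206). The difference of 60 minus 45 min, 0.71 ± 0.24 (limma adjusted p = 0.364), became 0.34 when the 60 min array of day 3 was left out and 1.08 when that of day 1 was. A second probe set of this gene was near background, between 2.44 and 28.9, and it was not used. Averaged with it, Anxa1 at 45 min on day 3 went from 0.64 above 0 min to -0.07.

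By the probe sets used, Anxa4 and Anxa6 differed least between clamped and 0 min kidneys. Annexin A4 sits in the membranes of secretory and tubular epithelium, and its gene read 2313.5, 2422 and 3040.1 on day 1 and 1861, 1967 and 2807 on day 3. Annexin A6 binds endosomes and the plasma membrane, and its gene read 299, 383 and 474 on day 1 and 246, 251 and 426 on day 3. In both genes, by these probe sets, the 0 and 45 min kidneys of day 3 were close to each other. They lay below those of day 1, so that clamped and 0 min kidneys overlapped. The fitted differences of clamped minus 0 min were 0.28 ± 0.13 for Anxa4 (limma adjusted p = 0.394) and 0.44 ± 0.15 for Anxa6 (limma adjusted p = 0.303). With each array centred on its median, the 45 min kidney was below 0 min by small amounts: -0.01 on each day for Anxa4, and -0.07 on day 3 for Anxa6.

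Other probe sets of these genes did not all move the same way. For Anxa4, 1424176_a_at was 0.66 above 0 min at 60 min on day 3 and 1457658_x_at was 0.12 above it, and both were below it at 45 min on that day (-0.21 and -0.32). On day 1 they were 0.41 and 0.51 above 0 min at 45 min, and 0.63 and 0.96 at 60 min. The probe set used was 0.07 and 0.39 above it. Between the 0 min kidneys, day 3 minus day 1 was 0.29 and 0.43 for them, against -0.31 for the probe set used. For Anxa6, 3 dimmer probe sets were lower at 60 than at 45 min on day 1 (-0.51, -0.40 and -0.36), where the probe set used was higher by 0.29. Over both days, 60 minus 45 min was -0.14 for 1429246_a_at and -0.13 for 1442288_at, against 0.51 ± 0.17 for the probe set used (limma adjusted p = 0.366). Against 0 min, 1442288_at was lower at 60 min on day 1 (-0.15) and at 45 min on day 3 (-0.05). Likewise 1429246_a_at was lower at 60 min on day 1 (-0.04). The probe set used was higher there, by 0.63 at 60 min on day 1 and by 0.03 at 45 min on day 3. The direction of Anxa6 between 45 and 60 min, and in part against 0 min, thus differed between its probe sets.

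**Figure D3:**
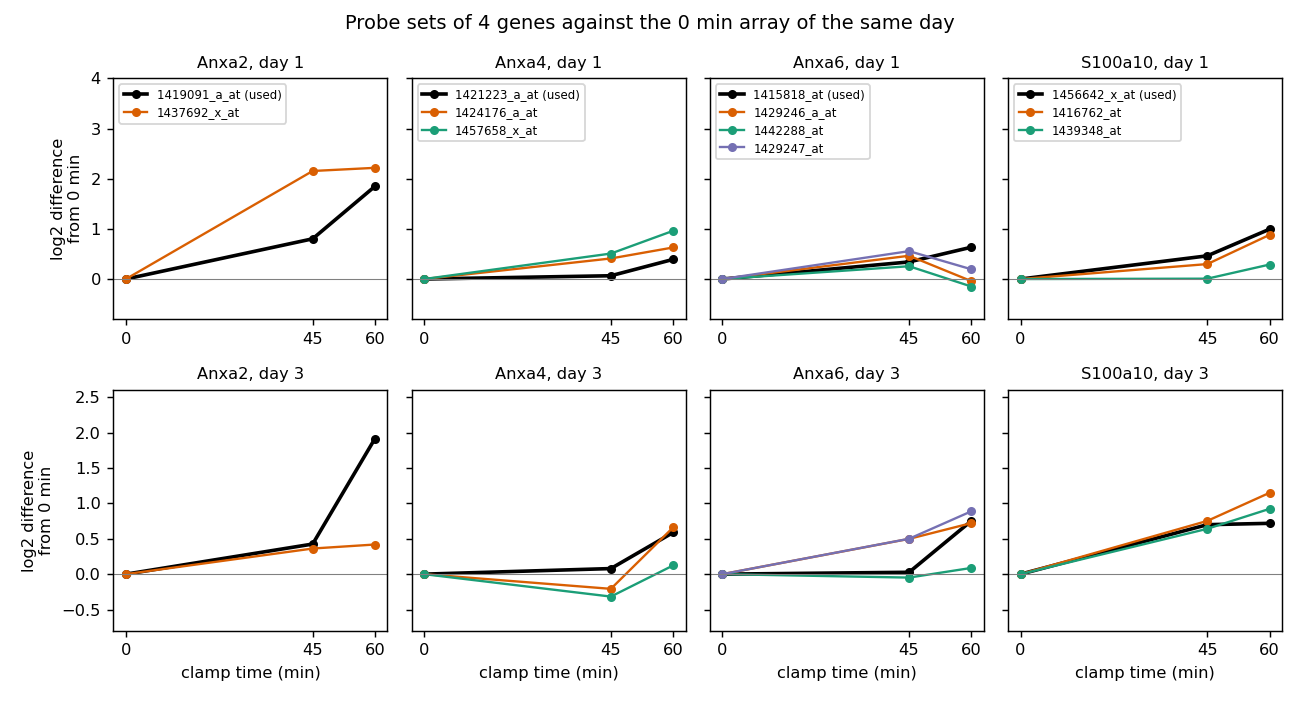
Log2 difference from the 0 min array of the same day (vertical axis) against clamp time in min, for each probe set past the filter of Anxa2, Anxa4, Anxa6 and S100a10, with day 1 above and day 3 below and the probe set used drawn thick in black. All 3 probe sets of S100a10 lie above 0, those of Anxa6 part at 60 min on day 1, and those of Anxa2 differ most at 45 min on day 1 and at 60 min on day 3.

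S100a10 encodes p11, the S100 protein that forms the complex with annexin A2 and that lost its calcium response in evolution. Its intensity was 5858, 8079 and 11682.5 on day 1 and 5260.4, 8548 and 8661 on day 3. The clamped kidneys all lay above both 0 min kidneys (10.9% of genes tested showed this). On day 3 the 45 and 60 min kidneys were alike, unlike for every other gene here. Clamped minus 0 min differed by 0.72 ± 0.16 (limma adjusted p = 0.210) and 60 minus 45 min by 0.28 ± 0.18 (limma adjusted p = 0.546). Leaving out the 60 or the 45 min array of day 1 made that difference 0.08 or 0.09, and leaving out the 45 or the 60 min array of day 3 made it 0.46 or 0.47. The probe set used, 1456642_x_at, can match other transcripts by its suffix. A probe set without that suffix, 1416762_at, read 5417, 6664 and 9987 on day 1 and 4107, 6928 and 9126 on day 3. There 60 min exceeded 45 min by 0.40 on day 3, and 60 min exceeded 0 min by 1.15 on that day against 0.72 for the probe set used.

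S100a6 encodes calcyclin, a calcium sensor of growing and stressed cells. Its intensity was 2115, 4827 and 8825 on day 1 and 1995, 3113 and 14158 on day 3. The 0 min kidneys were alike, the 45 min kidney was lower on day 3 than on day 1, and the 60 min kidney was higher. At 60 min the level was 4.17 times that of 0 min on day 1 and 7.10 times on day 3, the largest ratio among the 9 genes on that day. Clamped minus 0 min differed by 1.67 ± 0.28 (limma adjusted p = 0.174) and 60 minus 45 min by 1.52 ± 0.33 (limma adjusted p = 0.306), rank 25 from the top. Without the 60 min day 3 array, that second difference was 1.00.

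S100a4 encodes metastasin, an S100 protein of motile cells that binds nonmuscle myosin. It was dimmer and read 249, 589.7 and 800.03 on day 1 and 417, 503 and 2652 on day 3. The 60 min kidney of day 3 stood apart from all others, and the 0 min kidney of day 3 was 0.71 above that of day 1 on the log2 scale. Clamped minus 0 min differed by 1.42 ± 0.39 (limma adjusted p = 0.249) and 60 minus 45 min by 1.40 ± 0.45 (limma adjusted p = 0.363), the widest errors of the 9 genes. The second difference depended on single arrays: it was 0.66 and 0.68 when the 60 or the 45 min array of day 3 was left out, and 2.13 and 2.11 when those of day 1 were.

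**Figure D4:**
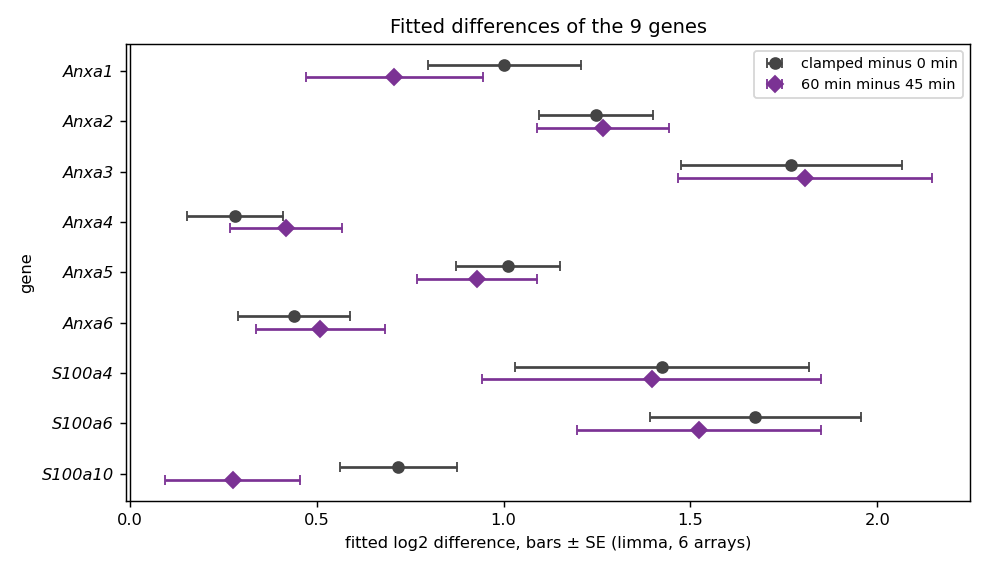
Fitted log2 difference (horizontal axis) with bars of ± SE for the 9 genes, circles for clamped minus 0 min and diamonds for 60 minus 45 min, from limma on 6 arrays. Anxa3, S100a6 and S100a4 lie farthest right in both, Anxa4 and Anxa6 near 0.5 or below, and for S100a10 the diamond lies left of the circle.

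The step between 0 and 45 min was set beside the step between 45 and 60 min. On day 1 the step from 45 to 60 min exceeded the step from 0 to 45 min in 4 of the 9 genes (47.6% of genes tested), and on day 3 in 8 of them (57.5%). It did so on both days in 3 genes (Anxa2, Anxa4 and Anxa5), where 26.2% of genes tested did. For Anxa3 the first step was 1.45 and the second 1.19 on day 1, and 0.28 and 2.42 on day 3. S100a4 had 1.19 and 0.43 on day 1, and 0.26 and 2.36 on day 3. S100a10 was the exception on day 3, with 0.70 and 0.02.

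Between days, the kidneys clamped for 45 and for 60 min went apart in some of the 9 genes but not in all. Day 3 minus day 1 was above 0 after 60 min and below 0 after 45 min in 6 genes (Anxa1, Anxa2, Anxa3, Anxa5, S100a4 and S100a6), and 27.3% of genes tested did this. After 60 min the differences of these 6 ran from 0.14 for Anxa5 to 1.71 for S100a4. After 45 min they ran from -0.86 for Anxa3 to -0.03 for Anxa1, and with each array centred on its median Anxa1 turned to 0.07. In the 0 min kidneys they ran from -0.08 for S100a6 to 0.71 for S100a4. Median centring turned those of S100a6, Anxa1 and Anxa5 from below 0 to 0.03, 0.10 and 0.08. With all probe sets averaged, Anxa1 turned to -0.09 after 60 min, 0.07 after 45 min and 0.40 at 0 min. By the probe sets used, Anxa4 and Anxa6 were lower on day 3 after both clamp times. S100a10 went the other way, with 0.08 after 45 min (-0.03 with quantile normalization) and -0.43 after 60 min. At least 2-fold higher on day 3 was 1 gene after 60 min, S100a4 (3.01% of genes tested), and 0 after 45 min (1.19%). When 45 and 60 min were pooled as clamped within each day, limma called 0 genes for day 3 minus day 1 in clamped kidneys (0%). It also called 0 for the difference in clamp effect between the days (0%). At an unadjusted p under 0.05 these were 522 and 282 genes, with 0 of the 9 in either. The spread in this fit holds the difference between 45 and 60 min.

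Partners are known as protein complexes, and their transcripts were compared by profile over the 6 arrays. The measure was the root mean square difference between log2 values centred on each gene's mean, where 0 means the same profile. The values were not scaled, so the size of a gene's changes counts as well as their shape. All genes share the 6 arrays, so the measure describes them only. From Anxa2, the median of all genes lay at 0.80. Anxa5 was at 0.19 (rank 13 of 12733) and S100a6 at 0.30 (rank 90). S100a4 was at 0.47 (rank 569) and S100a10, its partner in the complex, at 0.53 (rank 876). With the probe set 1416762_at, tried after the data were seen, S100a10 was at 0.44 with 445 genes nearer, and with 1439348_at it was at 0.62 with 1816 genes nearer. Within the group the nearest pairs were Anxa4 with Anxa6 (0.12), Anxa2 with Anxa5 (0.19), Anxa1 with Anxa5 (0.20) and Anxa3 with S100a6 (0.20), and the farthest was Anxa3 with Anxa4 (0.94).

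The 5 genes nearest to Anxa2 outside the group were Tubb6 (0.12), a tubulin gene, Lgals1 (0.12), which encodes galectin-1, Gpr176 (0.13), Phgdh (0.14), the first enzyme of serine synthesis, and Aldh1a2 (0.14), an enzyme of retinoic acid synthesis. Lgals1 read 4781, 10353.5 and 18970.4 on day 1 and 6432, 9165 and 22541 on day 3. Cdca5, which encodes the cohesin regulator sororin, was nearest both to Anxa3 (0.19) and to S100a6 (0.11). The gene of the monocyte chemokine Ccl2 was nearest to S100a4 (0.11), and it read 108, 317 and 336 on day 1 and 186, 237 and 1176 on day 3. For the others the nearest gene was Galnt12 (Anxa1), Nemp1 (Anxa4), Aldh18a1 (Anxa5), Dtx3l (Anxa6) and Zfp469 (S100a10).

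Markers of other cells were read beside these values. The summed intensity of 13 macrophage and monocyte markers (13 of 13 on the array) was 6093 at 0 min and 9830 to 9888 in the clamped kidneys on day 1. On day 3 it was 10436 at 0 min, 15240 at 45 min and 38098 at 60 min. The last was 6.25 times the 0 min day 1 sum, where S100a4 was at 10.6 times and S100a6 at 6.70 times. Lyz2 alone read 889, 2572 and 2124 at 0, 45 and 60 min on day 1 and 3124, 5504 and 17100 on day 3. Csf1r read 2472.5, 2837 and 1965 on day 1 and 4033, 4704 and 6540 on day 3. Both were thus higher on day 3 than on day 1 in the 0 min kidneys as well. Of the 13 macrophage and monocyte markers, 9 were higher in each clamped kidney than in the 0 min kidney of its day (16.7% of genes tested were). Below 16 on all arrays lay 0 of the 13. The sum of 9 fibroblast and myofibroblast markers (9 of 9) ran from 11470 to 17303 at 0 min and from 27702 to 50003 in clamped kidneys. This sum, too, was highest on the 60 min day 3 array, at 4.36 times its 0 min day 1 value. The sum of 9 injured tubule markers (9 of 9) ran from 6742 to 7626 at 0 min, from 11732 to 17334 at 45 min and from 35252 to 42254 at 60 min. Of 8 neutrophil markers 7 had a probe set, with a sum of 1014 to 1092 at 0 min, 1103 to 1634 at 45 min and 1444 to 1530 at 60 min. Most of this neutrophil sum came from S100a8 and S100a9, at 491 and 368 of the 1014 at 0 min on day 1. Csf3r read 48.4, 72.9 and 77.9 on day 1 and 41.8, 82.1 and 155.9 on day 3, and Mmp8 lay between 38.5 and 73.9. Cxcr2 lay below 16 on all arrays, and Mpo and Elane below the filter. Summed proximal tubule markers ran from 81633 to 87684 at 0 min and from 54235 to 57680 at 60 min, those of loop and distal nephron from 73954 to 74341 and from 41580 to 45069, and those of collecting duct from 6869 to 7777 and from 4173 to 6747. The part of these cells in the levels of S100a4, S100a6 and the annexins was not tested. The actin ratio of the 60 min day 3 array was the lowest of the 6, which is the most 5' signal relative to 3'. Its Gapdh ratio was near that of the 0 min day 3 array (-0.374 against -0.368). Without the 60 min day 3 array the fitted difference of clamped minus 0 min was 1.06 for S100a4, 1.41 for S100a6, 1.61 for Anxa3 and 1.18 for Anxa2.

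**Figure D5:**
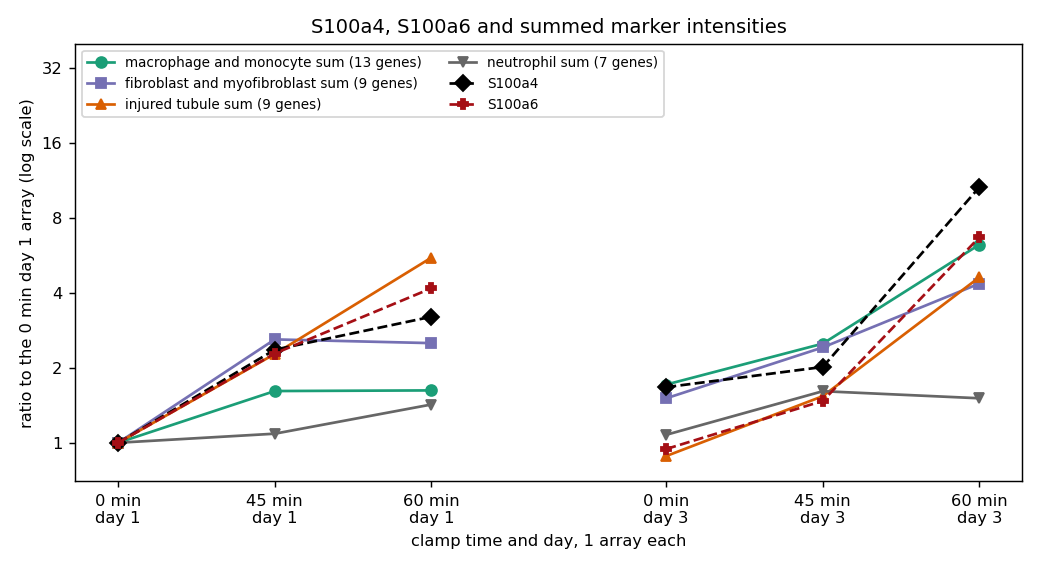
Ratio to the 0 min day 1 array (vertical axis, log scale) of S100a4 and S100a6 intensity (dashed) and of summed marker intensities (solid) on each of the 6 arrays. S100a4, S100a6 and the macrophage and fibroblast sums are highest on the 60 min day 3 array, at 10.6, 6.70, 6.25 and 4.36. Lyz2 is the largest part of the macrophage sum there. The neutrophil sum, mostly S100a8 and S100a9, stays at or below 1.61 on all arrays.

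The other annexins that passed the filter were not higher in each clamped kidney. Of 6 listed, 5 had a probe set and 4 passed the filter. Their median for clamped minus 0 min was 0.01, close to the 0.0092 of all genes. That limma called 0 of them does not set them apart, since it called 0 of all 12734 genes tested. Of these 4, 0 were higher in each clamped kidney (16.7% of genes tested were), and 4 genes are too few to set against that share. Anxa13 was lower in each, reading 331, 176 and 142 on day 1 and 457, 442 and 176 on day 3 (-0.83 ± 0.23, limma adjusted p = 0.254). Annexin A13 is an annexin of intestinal and kidney epithelium. Anxa7 read 5392, 4309 and 5459 on day 1 and 3629, 4145 and 4055 on day 3. Anxa8 and Anxa9 were dim, with differences of 0.01 ± 0.16 and 0.06 ± 0.14.

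Of 12 other S100 genes, 10 had a probe set and 6 passed the filter, with a median of 0.34 and 0 called. Of the 6, 3 were higher in each clamped kidney (16.7% of genes tested were). S100a8 and S100a9 encode the calprotectin subunits of neutrophils and monocytes. S100a8 read 491, 565 and 774 on day 1 and 505, 810.5 and 738 on day 3 (0.51 ± 0.17, limma adjusted p = 0.295). S100a13 differed by 0.38 ± 0.15 and S100a16 by 0.35 ± 0.17. S100g, which encodes the calcium buffer calbindin-D9k of the distal tubule, differed by -0.41 ± 0.39 and read 4495 on the 60 min day 3 array against 14798 to 20270 on the others.

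Receptors and the plasminogen system were measured as the known targets of these proteins. Among 6 receptor genes 4 had a probe set and passed the filter, with a median of 0.18 and 0 called. Fpr2, a formyl peptide receptor for annexin A1, read 83.8, 109 and 117 on day 1 and 88.5, 90.2 and 160.3 on day 3 (0.38 ± 0.17). Tlr4 differed by 0.29 ± 0.23, Bsg by -0.10 ± 0.12 and Ager by 0.07 ± 0.17. Among 8 genes of the plasminogen system 6 had a probe set and 5 passed the filter, with a median of 0.86 and 0 called. Plaur, the urokinase receptor gene, read 158, 204 and 487 on day 1 and 226, 342 and 899 on day 3 (1.09 ± 0.14, limma adjusted p = 0.151), which is the same order as Anxa2. Plat, for tissue plasminogen activator, differed by 0.86 ± 0.22 and Plau, for urokinase, by 0.56 ± 0.26. Serpinb2, for the inhibitor PAI-2, went the other way between clamp times. It read 31.7, 247 and 129 on day 1 and 46.1, 315 and 118 on day 3, so that it was higher in each clamped kidney (1.90 ± 0.16, limma adjusted p = 0.131) but lower at 60 than at 45 min (-1.08 ± 0.19).

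Among 20 other partners and membrane repair genes, 19 had a probe set and 18 passed the filter, with a median of 0.31 and 0 called. Of the 18, 9 were higher in each clamped kidney (16.7% of genes tested were). Myof encodes myoferlin, a ferlin of membrane repair. It read 146, 572 and 875 on day 1 and 200.2, 325 and 1035 on day 3 (1.82 ± 0.28, limma adjusted p = 0.165). Dysf, the related dysferlin gene, differed by 0.36 ± 0.27 and was lower at 45 min than at 0 min on day 3 (245 against 354). Ahnak, whose giant scaffold protein binds the complex of annexin A2 and S100A10, differed by 0.54 ± 0.14, and Myh9, the nonmuscle myosin that S100A4 binds, by 0.62 ± 0.13. Trpv6, a calcium channel gene, differed by 0.81 ± 0.24 from low intensities of 21.7 to 76.9, and Kcnk3 by 0.56 ± 0.24. Cacybp, the calcyclin-binding protein gene, differed by -0.06 ± 0.19.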

How the data were processed

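Each array's deposited table holds linear intensities, 1 for each probe set, which the authors made with Affymetrix Expression Console, per the submitters' processing notes. Version and summarisation method are not stated. Of 45101 probe sets, 64 were controls, 34945 carried 1 gene symbol in the platform annotation, 932 several and 9160 none; the last 2 kinds were not used. The RefSeq table held the gene identifier of 34741 single-symbol probe sets. Each gene was read from its probe set of highest mean intensity. Values were log2(intensity + 16), and genes were kept at a mean at or above the 40th percentile of non-control probe sets (log2 6.01).

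Contrasts were fitted on all kept genes with limma 3.58.1 in R 4.3.3 (lmFit, eBayes), with p-values adjusted over all of them (Benjamini-Hochberg, threshold 0.05). Simulated data served to check the fitted size of clamped minus 0 min only, not the p-values. For clamped minus 0 min and 60 minus 45 min the model held clamp time and day. For contrasts of days it held 4 groups, clamped or not on each day, with 2 residual degrees of freedom each. Single arrays were compared by size, at 2-fold, with no test. The number of arrays limits the precision. The members and lists were chosen with earlier results of these data known. Named by rule were all members, the genes of nearest profile, and in each list up to 4 genes of largest absolute difference; Ahnak, Dysf, Cacybp and the genes of the closing paragraphs were added after their values were seen. Marker lists not named in the text were urothelium, mesothelium, perirenal fat, adrenal cortex, red blood cell, endothelium and T and B cell markers, with medians for clamped minus 0 min of -0.20, 0.57, -0.12, 0.06, -0.75, 0.14 and -0.48. Quantile normalization, median centring, pseudocounts of 1 and 64, other filters, other probe sets, a robust variance trend, clamping as 2 levels and leaving out each array were tried.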

Additional observations from a re-analysis of the deposited data

How the results depend on the processing

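For clamped minus 0 min, each of the 9 genes stayed above 0 under every alternative run. The count of genes called by limma was 1 with median centring, 75 with a robust variance trend and 0 to 200 when each array was left out in turn, each such fit having 1 residual degree of freedom and assuming that a lone array varies like the others. For 60 minus 45 min, Anxa6 reversed by other probe sets (-0.14 and -0.13) and the other 8 genes stayed above 0. Contrasts of days reversed in 16 of the alternatives run for day 3 minus day 1 in clamped kidneys and in 28 of those for the difference in clamp effect; Anxa6 did not reverse in the former. For day 3 minus day 1 in clamped kidneys, the alternatives gave -0.012 for Anxa1 with all probe sets averaged, 0.032 for Anxa2 with median centring and 4.2e-05 with a pseudocount of 64, and -0.0064 for S100a6 with quantile normalization. Leaving out arrays gave ranges of -0.19 to 0.88 for Anxa1, -0.75 to 0.74 for Anxa2, -1.46 to 0.97 for Anxa3, -0.46 to 0.048 for Anxa4, -0.59 to 0.51 for Anxa5, -0.44 to 1.92 for S100a4, -1.06 to 1.12 for S100a6 and -0.44 to 0.091 for S100a10. For the difference in clamp effect between the days, all probe sets averaged gave -0.41 for Anxa1, -0.34 for Anxa4, 0.15 for Anxa6 and 0.32 for S100a10. Other probe sets gave -0.29 and -0.83 for Anxa4, 0.40 and 0.32 for Anxa6, and 0.36 and 0.63 for S100a10. Quantile normalization gave 0.011 for Anxa5 and median centring -0.048 for S100a4. Leaving out arrays gave -0.18 to 0.90 for Anxa1, -0.90 to 0.59 for Anxa2, -1.76 to 0.66 for Anxa3, -0.15 to 0.36 for Anxa4, -0.56 to 0.55 for Anxa5, -0.46 to 0.26 for Anxa6, -1.14 to 1.22 for S100a4, -0.98 to 1.20 for S100a6 and -0.29 to 0.25 for S100a10; without either 0 min array it could not be fitted. Averaging probe sets gave 1 gene at least 2-fold higher at 60 than at 45 min on day 1. At 1.5-fold the counts, with the share of all genes, were 6 (9.86%) and 8 (11.5%) for 45 and 60 min over 0 min on day 1, 3 (5.53%) and 9 (15.4%) on day 3, and 4 (4.47%) and 7 (15.6%) for 60 over 45 min on day 1 and day 3. Between days they were 1 higher (5.61%) at 0 min, 2 lower (9.3%) at 45 min and 3 higher (8.03%) at 60 min. The cause of these changes was not tested. The fit of clamp time holds day as a term, so clamped and 0 min kidneys were compared within days. No paired analysis was possible because, apart from the day, the labels give no number or animal that arrays share. Signal over background limits S100a4 and Anxa6 most among the 9 genes, as the dimmest.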

Other observations

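S100g was chosen after its values were seen. Its intensity was 17390, 20270 and 14798 at 0, 45 and 60 min on day 1 and 16546, 19483 and 4495 on day 3. The 60 min kidney of day 3 was the lowest of the 6, and 60 minus 45 min differed by -1.28 ± 0.45. Calb1 and Pvalb, which encode other EF-hand calcium-binding proteins of the distal nephron, were also lowest on that array. Calb1 read 13041, 9252 and 3788 on day 1 and 13054, 12596 and 2140 on day 3, and Pvalb 2042, 1568 and 374 on day 1 and 2062, 1804 and 181 on day 3. S100a6 was at its highest on the same array. Some EF-hand genes were therefore high and others low in the same kidney.

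S100a14, an S100 gene of epithelium, lay below the filter on dim probe sets. It read 6.55 and 10.8 in the 0 min kidneys and 52.8, 64.2, 47.2 and 143 in the clamped kidneys of 45 and 60 min on day 1 and day 3. All 4 clamped kidneys were above both 0 min kidneys, whose values are near background, and no fold or test is given.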
